A study of Mus musculus with 2 samples.

Results

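Spliced antisense transcript models are transcript structures with at least 2 exons that were assigned to the strand opposite an annotated gene, here in mouse heart. They were taken by rule as every model of the authors' class antisense with at least 2 exons, outside the spike-in sequences, and the libraries were joined on the intron chain, which is the ordered list of a model's introns with their chromosome and strand. Replicate 1 held 591 such models among 91724 models in all, with 959 reads, or 0.108% of its reads other than spike-ins. Replicate 2 held 606 among 94012, with 887 reads, or 0.0925%. Together they made 1082 distinct chains with 1846 reads. For each chain the names used here are the gene on the opposite strand followed by as and a number, so that Nr2f2_as1 runs antisense to Nr2f2.

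The samples were total RNA from hearts of female B6CASTF1/J mice aged 14 days, measured by long-read RNA-seq in 2 libraries of 1 group, replicates 1 and 2, with no second condition. The strain is an F1 hybrid whose reads were placed on mm10, the C57BL/6J reference, so the sequences printed below are reference sequences. The labels call them biological replicates, but describe the animals of replicate 2 in conflicting words, so every p-value compares these libraries and covers counting error only. The libraries held 896941 and 972159 reads. All 22 sarcomere genes of a marker list had at least 3 reads in both libraries, with summed levels of 76029 and 79234 CPM, which scales counts by each library's total outside spike-ins and genomic models. A single read was worth 1.17 and 1.08 CPM, and a count of 0 allowed up to 3 reads, or 3.50 and 3.24 CPM.

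Natural antisense transcripts can start from promoters shared with a gene, from within it or beyond its end, and some are known to act on the gene they overlap. Introns removed by the major spliceosome begin with GT and end with AG on the transcribed strand. The same intron read from the opposite strand begins with CT and ends with AC, so the bases at the intron ends show which strand the splice sites belong to.

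The chains fell into groups by their introns. In 304 of the 1082 models (28.1%) every intron had exactly the coordinates of an annotated GENCODE M21 intron of the other strand, and these are called mirrored models. In 47 more every intron lay within 10 bases of such an intron at both ends without matching all of them exactly, in 7 only some introns did, and in 724 (66.9%) no intron did. Sequence was available where intron ends lay within annotated transcript sequences or RefSeq promoter windows of GRCm38, which covered part of the introns. The following intron ends are shown to give examples of the bases in each group. Each runs 5′ to 3′ on the strand of the antisense model with 10 exon bases and 10 intron bases. Capitals mark the first or last intron bases of these ends. Those of mirrored models were
Nr2f2_as1 intron 1 start, chr7:70354922-70354941, + strand: ccacaggcatCTggaagaaa
Nr2f2_as1 intron 1 end, chr7:70357753-70357772, + strand: tccttcctACctgaggtgaa
Nr2f2_as1 intron 2 start, chr7:70358281-70358300, + strand: ctctgtacagCTgcaggagg
Nr2f2_as1 intron 2 end, chr7:70359878-70359897, + strand: aggccgatACcttcccgtct
Bcl2l1_as1 intron start, chr2:152830093-152830112, + strand: agataaggttCTgaagagag
Mbnl1_as1 intron end, chr3:60529795-60529814, - strand: atttactcACtttcagtgaa
Ubl3_as1 intron end, chr5:148551943-148551962, + strand: gttcacttACcatatccgcc
and those of models with no mirrored intron were
Ctcfl_as1 intron 2 end, chr2:173094618-173094637, + strand: cttcccccAGaggccacagc
Ctcfl_as1 intron 3 start, chr2:173094691-173094710, + strand: tatctcgcagGTaaggccgt
Gm20390_as1 intron start, chr11:93957840-93957859, + strand: aactactcagGTgggtaaca
Gm20390_as1 intron end, chr11:93959481-93959500, + strand: ctctttacAGaatcgctgcc
Hcn2_as1 intron start, chr10:79716806-79716825, - strand: ccgactccggGTgcgagggg
Hcn2_as1 intron end, chr10:79716505-79716524, - strand: ccccacacAGggatggatgg
The mirrored examples read CT and AC, and the others read GT and AG.

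The same held over all intron ends that could be read. Of 405 distinct exactly mirrored introns, 63 had a readable start, and it was CT in 62 and GT in 1. The end could be read in 69 and was AC in 67 and AG in 0. Both ends were known in 28, and all 28 were CT-AC, so that read on the gene's own strand they were GT-AG. Of 1063 introns with no mirror, the start was GT in 154 of 168, GC in 11 and CT in 3, and the end was AG in 138 of 142. Both ends were known in 66, of which 56 were GT-AG, 6 were GC-AG and 0 were CT-AC. The 48 introns within 10 bases of an annotated one, but not at it, resembled the unmirrored introns: the start was GT in 14 of 16 and the end was AG in 30 of 35. Annotated introns on their own strand gave GT-AG in 94.9% of 25818 with both ends known and CT-AC in 4. Exactly mirrored introns share the coordinates of annotated introns, so their CT and AC followed largely from how the group was defined.

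Mirrored models took a larger share of reads than of models, with many of these reads on few chains. Of the 304 mirrored models 231 had 1 read in all, as did 577 of the 724 with no mirrored intron. The 11 mirrored chains with at least 5 reads in each library held 224 and 176 reads, counted in any class. Exactly mirrored models were 163 of 591 (27.6%) in replicate 1 and 188 of 606 (31.0%) in replicate 2, and they held 390 of 959 reads (40.7%) and 364 of 887 reads (41.0%). The next shares also include introns within 10 bases, whose readable ends resembled those of unmirrored introns. With these included, the share of models was 33.6% ± 1.77 and the share of reads 44.4% ± 0.226 (SD, n = 2 libraries). The exact Clopper-Pearson 95% intervals of the reads' share were 41.0 to 47.4% in replicate 1 and 41.2 to 47.9% in replicate 2. They treat reads as independent, but reads of the same model are not, so these intervals are too narrow. Of 3883 annotated transcripts of gene type antisense, 4 (0.103%) had all introns within 10 bases of an intron of the other strand, and 2 matched exactly. Annotated introns were CT-AC on their own strand in 4 of 25818, so few exact matches followed largely from the annotation. The annotated share is therefore no independent contrast.

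**Figure D1:**
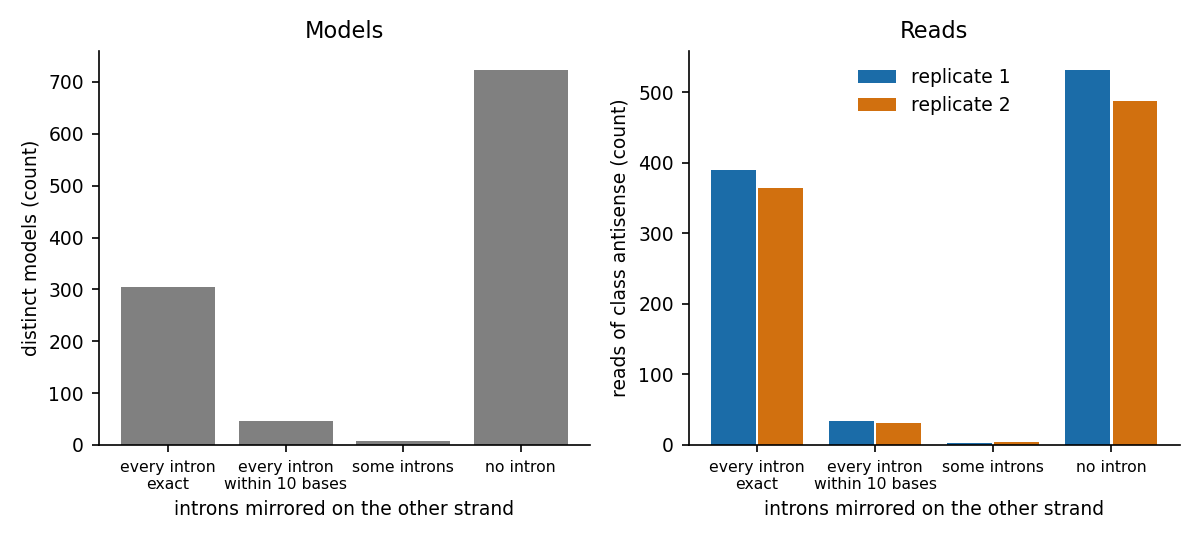
Distinct models (left, count) and reads of the class antisense per library (right, count) by how their introns relate to annotated introns of the other strand. The 304 exactly mirrored models are fewer than the 724 with no mirrored intron, while their reads, 390 and 364, come closer to 532 and 488 for models with no mirrored intron. Of the 304, 231 had 1 read in all, as did 577 of the 724.

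Ends differed between the groups as well. The 3′ end lay exactly at an annotated start of the other strand in 75 of 304 mirrored models (24.7%) and in 22 of 724 with no mirrored intron (3.04%). The 5′ end lay exactly at an annotated end of the other strand in 86 mirrored models (28.3%) and in 31 others (4.28%). Both held for 24 mirrored models and 0 of the 724, and 29 mirrored models held the whole intron chain of an annotated transcript. Over all 1082 models, 107 3′ ends were at 0 bases from an annotated start and the next nearest was 18 bases away, so the deposited ends lay either at an annotated position or some way from it. The opposite arrangement, a 5′ end within 500 bases of an annotated start of the other strand, was found in 40 mirrored models (13.2%) and in 139 models with no mirrored intron (19.2%).

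**Figure D2:**
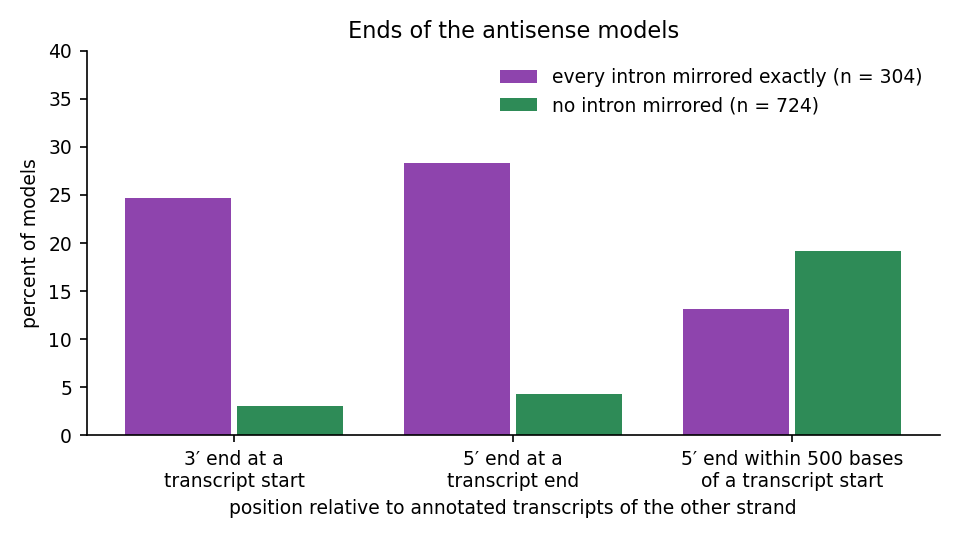
Percent of models whose 3′ end is at an annotated transcript start, whose 5′ end is at an annotated transcript end, or whose 5′ end is within 500 bases of an annotated start, all on the other strand. Mirrored models (304) reach 24.7% and 28.3% for the first pair of positions, against 3.04% and 4.28% of models with no mirrored intron (724), while for the last position they are at 13.2% against 19.2%.

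By layout, 296 mirrored models (97.4%) lay inside the gene on the other strand, against 530 of 716 unmirrored models with such a gene (74.0%). Head-to-head models, which start inside the gene and run out past its start, were 2 of the mirrored and 91 of the unmirrored ones. Tail-to-tail models, which start beyond the gene's end and run into it, numbered 6 and 65, and models that span the whole gene 0 and 29. Models without any overlap between their exons and those of the gene numbered 0 and 316, and the median share of exon bases over exons of the other strand was 32.1% and 0.08%. An exactly mirrored intron borders annotated exons of the other strand, so overlap, and much of the inside share, followed from the grouping. Protein-coding genes stood opposite 301 mirrored and 638 unmirrored models, long intergenic noncoding genes opposite 0 and 32, and pseudogenes opposite 0 and 19.

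Most models were short chains: 794 of 1082 had 2 exons, 185 had 3 and 103 had 4 or more. The median intron was 1230 bases in mirrored and 1140.5 bases in unmirrored models, within a range of 34 to 187480 bases over all models. The median model length in exon bases was 2052 and 1853 in replicates 1 and 2, against 1820 and 1704 for single-exon antisense models and 1365 and 1399.5 for spliced intergenic models. Spliced models took 3.13% of antisense reads in replicate 1 (exact 95% interval 2.94 to 3.34) and 3.03% in replicate 2 (2.84 to 3.23). The rest were on 10053 and 9981 single-exon models. The difference between the libraries did not pass a two-sided Fisher's exact test (p = 0.478). The intervals and the test treat reads as independent, which reads of the same model are not.

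Recurrence depended on reads. Within the class antisense, 115 of 1082 chains were read in both libraries. Part of the absences were a matter of class, since the same chain can be filed under another class in the other library: counted in any class, 164 chains (15.2%) were in both, 52 had at least 2 reads in each library and 18 at least 5 in each. In all, 852 chains had 1 read. Of the chains classed antisense with 1 read in replicate 1, 71 of 480 (14.8%) were found in replicate 2 in any class, and of those with 1 read in replicate 2, 86 of 529 (16.3%) were found in replicate 1. Of the chains with 5 or more reads, 23 of 23 in replicate 1 and 17 of 18 in replicate 2 were found in the other library. At 1 read, mirrored models recurred in 18.0% and 17.6% and unmirrored ones in 14.2% and 15.6%, while models with a new splice site recurred in 13.5% and 12.9% and new combinations of known sites in 22.2% and 21.8%.

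**Figure D3:**
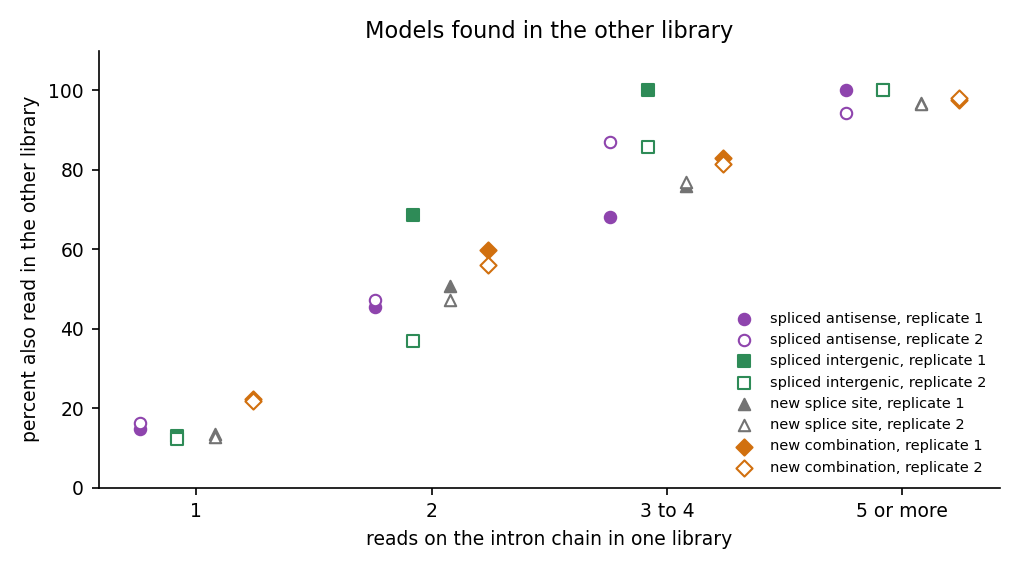
Percent of intron chains also read in the other library, by their reads in one library, for spliced antisense, spliced intergenic, new splice site and new combination models; filled marks start from replicate 1 and open marks from replicate 2. Spliced antisense models stand at 14.8% and 16.3% with 1 read and at 100% and 94.4% with 5 or more reads.

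Among the 18 chains with at least 5 reads in each library, 11 were mirrored exactly, 1 within 10 bases and 6 not at all. In 8 of the 11 the 3′ end was at an annotated start of the other strand, and in 0 of the 6. These 11 held 224 and 176 reads, against 49 and 51 for the 6. All 18 lay inside the gene of the other strand.

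Mirrored models with the most reads stood opposite genes of several kinds. Ccdc80_as1 runs antisense to Ccdc80, which encodes a secreted protein of the extracellular matrix, at chr16:45094053-45104536 with 3 exons. It had 46 reads in replicate 1 and 20 in replicate 2, where the chain was filed as a new combination and not as antisense. Ccdc80_as2, the 2-exon chain at chr16:45094053-45096757 that holds only the shorter of its introns, had 41 reads in replicate 1, there filed as incomplete, and 23 in replicate 2. Ccdc80 itself had 105 and 106 reads, where reads of a gene leave out the genomic class here and below. Over the intron that both chains share, 446 bases long, all antisense models together had 87 and 43 reads, and the gene's strand had 82 and 86. The antisense reads were thus above the gene's in replicate 1 and below them in replicate 2.

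Crebbp encodes a histone acetyltransferase and transcriptional coactivator. Crebbp_as1, at chr16:4128444-4213997, had 6 exons and 5 introns, each at exactly the position of a Crebbp intron. Crebbp had 4 and 2 reads in replicates 1 and 2, of which 0 and 0 were on annotated models. Crebbp_as1 had 24 reads in replicate 1 and 30 in replicate 2. Antisense reads over its introns ran from 24 to 33 in replicate 1 and from 30 to 42 in replicate 2, and on the gene's strand every one of the 5 introns had 0 reads in both libraries, which allows up to 3 reads in each. Its 3′ end lay at an annotated Crebbp start. The junction of its last intron, which is 33005 bases long, is shown as 15 bases from each side with the second exon in capitals, because this chain had antisense reads with none on the gene's strand.
Crebbp_as1 intron 5 junction, chr16:4180119-4213153, + strand: acaatgatccaaaatCTGTGTTGTCATTCG

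Tnnt2 encodes cardiac troponin T of the thin filament. Tnnt2_as1, at chr1:135838909-135843814, had 2 exons and 12 reads in replicate 1 and 24 in replicate 2. Tnnt2 had 170 and 177 reads, of which 0 and 0 were on annotated models. Tnnt2_as1 had an intron of 988 bases, crossed by 12 and 25 antisense reads and by 0 and 1 reads of the gene's strand. Of the 20 genome bases after its 3′ end, 19 were A on the antisense strand, as were 19 for Prpf38b_as1 and 16 for Mbnl1_as1. Its junction is shown because nearly all reads across it were antisense.
Tnnt2_as1 intron junction, chr1:135840898-135841915, - strand: ttaccttcctgttccTCCTCGTACTCCTCC

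Bcl2l1 encodes Bcl-xL, an inhibitor of apoptosis. Bcl2l1_as1, at chr2:152824665-152830618, had 41 and 13 reads, and its intron of 283 bases was crossed by 77 and 35 reads on the gene's strand. Mbnl1 encodes a muscleblind splicing regulator. Mbnl1_as1, at chr3:60529549-60595749, had 12 and 23 reads across an intron of 65789 bases, against 12 and 12 reads on the gene's strand, and its 3′ end was at an annotated start and its 5′ end at an annotated end of the other strand. Nr2f2 encodes the nuclear receptor COUP-TFII. Nr2f2_as1, at chr7:70353442-70360593, had 3 exons with 16 and 12 reads, against 25 and 27 reads of Nr2f2, and its 4 intron ends are those printed above.

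The remaining mirrored models that were named by rule had fewer reads. Lyrm4_as1, opposite a gene for an iron-sulfur cluster assembly protein, had 9 and 10 reads, against 3 and 5 reads of Lyrm4, or 15 and 22 with the genomic class counted, which puts the antisense reads below the gene's. Prpf38b_as1, opposite a gene for a pre-mRNA splicing factor, had 11 and 8 reads, against 18 and 7 reads of Prpf38b, or 23 and 11 with the genomic class counted, which puts the antisense reads below the gene's in replicate 2 as well. Ubl3_as1, opposite a gene for a membrane-anchored ubiquitin-like protein, had 7 and 7 reads, against 178 and 175 reads of Ubl3. Tox_as1, with 3 exons opposite a gene for an HMG-box protein, had 5 and 6 reads, against 3 and 1 reads of Tox. The antisense reads of these 4 models differed by at most 3 between the libraries, while the gene's reads ranged from 1 to 178.

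**Figure D4:**
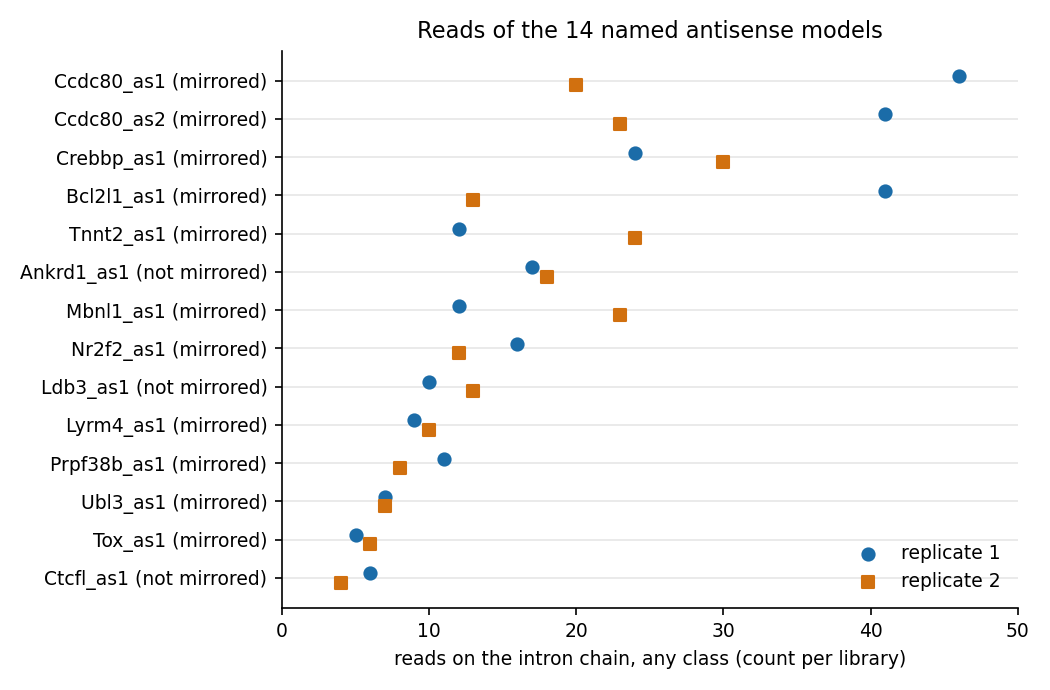
Reads on the intron chain in any class (count) in replicate 1 (circles) and replicate 2 (squares) for the 14 models named by rule, with mirrored meaning that every intron is mirrored exactly. The libraries lie close together for most models and farthest apart for Bcl2l1_as1, at 41 and 13 reads, and Ccdc80_as1, at 46 and 20.

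**Figure D5:**
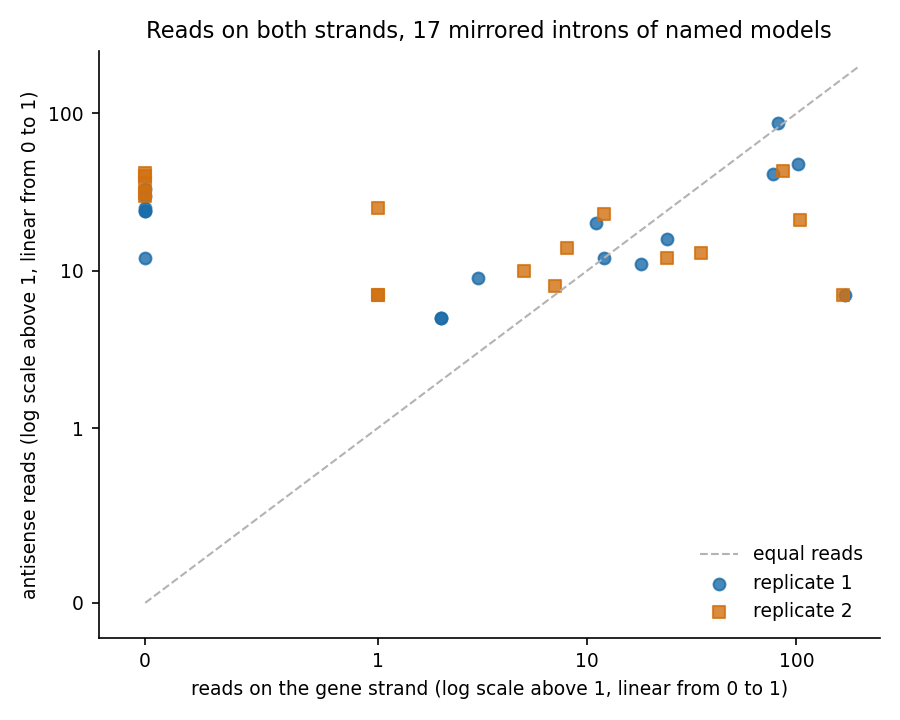
Antisense reads (vertical) against reads on the gene's strand (horizontal) over the 17 mirrored introns of the named models, on axes that are logarithmic above 1 and linear from 0 to 1, with a dashed line at equal reads. The 5 introns of Crebbp_as1 stand at 0 on the horizontal axis with 24 to 42 antisense reads, and that of Ubl3_as1 lies far below the line at 7 antisense reads against 171 and 167.

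Over all 405 exactly mirrored introns, antisense reads were 701 and 668, against 24942 and 27276 reads on the gene's strand. A read on the gene's strand was found for 366 introns (90.4%) and for 39 it was not, and the antisense reads exceeded the gene's for 53, these 39 included. Where the gene's strand had a read, the median intron had 3.70% as many antisense reads. Of the 1063 unmirrored introns, 7 (0.659%) had a read on the other strand at the same position. Unmirrored introns were defined by having no annotated intron there, so a low share followed from the grouping.

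Models with no mirrored intron were led by 2 muscle genes. Ankrd1 encodes a stretch-responsive protein of cardiomyocytes. Ankrd1_as1, at chr19:36114989-36118849, had 17 reads in replicate 1 as antisense and 18 in replicate 2 as genomic, the class of reads that fit no annotated splicing, against 112 and 195 reads of Ankrd1. Ldb3 encodes a Z-disc protein. Ldb3_as1, at chr14:34575926-34583565, had 10 and 13 reads over an intron of 369 bases, against 356 and 333 reads of Ldb3. Both introns had 0 reads on the gene's strand in both libraries.

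Ctcfl, a germline relative of the insulator protein CTCF, had 0 reads in both libraries. Ctcfl_as1, at chr2:173087655-173098169, lay tail to tail with it and had 5 exons with 6 and 4 reads. Both of its readable intron ends were of the canonical kind and are printed above. Hcn2_as1, a head-to-head model opposite a gene for a pacemaker channel, had 2 and 3 reads, and it was chosen after its values were seen.

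Some unmirrored introns were short and had repeated ends. The bases at the 2 ends of an intron could be compared in 59 unmirrored introns, of which 7 had a direct repeat of at least 8 bases, with a median intron length of 84 bases. This was so for 0 of 27 mirrored introns and for 0.763% of 24756 annotated introns. Ends that repeat at a shifted position, as in Neat1_as1, were not counted. With a direct repeat, the intron's exact place cannot be told from the read. St13_as1 had the most reads of these 7, 2 and 3, and its intron of 196 bases is shown because the repeat runs across both of its ends.
St13_as1 intron start, chr15:81384239-81384258, + strand: acataaaaagGCttccaaga
St13_as1 intron end, chr15:81384435-81384454, + strand: aaaaaaaaAGgcttccaaga
As placed in the deposited model the intron begins with GC and ends with AG. After the 3′ end, at least 12 A in 20 genome bases were found in 16 of 82 mirrored and 7 of 100 unmirrored models with those bases known. Their part in the reads was not tested.

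Genes with several antisense chains were few. Igf1r, Auts2 and Gm37240 each had 4 distinct spliced antisense chains, with 11, 6 and 6 reads in all, and 7 genes had 3, namely Crebbp with 56 reads and Atp13a3, Pdlim5 and Srsf10 with 4 each, and Lifr, She and Trpm7 with 3 each. Igf1r_as1, opposite the insulin-like growth factor 1 receptor gene, was mirrored exactly and had 5 and 3 reads, against 0 and 0 reads of Igf1r. Its 3 other chains had 1 read each. The 4 chains of Auts2 had at most 2 reads in a library, and those of Gm37240 at most 2.

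Antisense reads were mostly a small part of the gene's. They were 7.06% and 6.67% of the gene's in the median model of replicates 1 and 2, among models with a read on both. With both libraries summed, the median was 2.86% over 292 mirrored and 4.55% over 592 unmirrored models. For a chain with 1 read this share depends on the gene's reads alone. In all, 852 of the 1082 chains had 1 read, so these medians largely restate the gene's level. The median level of the gene was 26.8 and 22.7 CPM opposite mirrored models, and 9.32 and 9.71 CPM opposite unmirrored ones, against 11.7 and 10.8 CPM for 15048 annotated genes with a read. In 18 mirrored and 135 unmirrored models the antisense reads exceeded the gene's, but the gene had 0 reads in both libraries for 12 and 124 of these, so that 6 and 11 exceeded a gene with reads.

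Among the 15048 annotated genes with a read, 833 (5.54%) had a spliced antisense model. The gene lists were not matched in level to these genes, whose median was 11.7 and 10.8 CPM, and their shares were not tested. By gene list, 6 of 22 sarcomere genes (Csrp3, Ldb3, Myh7, Myom1, Tnnt2 and Ttn) had a spliced antisense model. They had 9 models in all, 4 of them mirrored exactly, with 27 and 40 reads in replicates 1 and 2. Most of these reads were on Tnnt2_as1, with 12 and 24, and Ldb3_as1, with 10 and 13. Fatty acid oxidation had 4 of 20 genes (Acadl, Echs1, Eci1 and Lpl) with 3 and 3 reads, the cardiac transcription factors 4 of 17 (Gata4, Irx4, Ppargc1a and Tbx20) with 3 and 5, calcium handling 3 of 16 (Cacna1c, Gja1 and Ryr2) with 3 and 2, oxidative phosphorylation 3 of 22 (Cox7a1, Sdha and Uqcrc2) with 1 and 3, endothelium 2 of 11 and fibroblast and matrix 2 of 15. Mbnl1 was the 1 gene of 15 splicing regulators. Glycolysis (16 genes), atrium (7), smooth muscle and pericyte (9), macrophage (9), erythroid cells (7), lung (6) and adipocytes (6) had 0.

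Each of the 14612 models of any class with at least 10 reads was set against the library totals by an exact binomial test, two-sided, of replicate 1 over replicate 2. With Benjamini-Hochberg adjustment 494 (3.38%) passed 0.05. Among the 22 spliced antisense chains that could be tested, 2 passed, both higher in replicate 1. Bcl2l1_as1, with 41 reads in replicate 1 and 13 in replicate 2, had a log2 ratio of 1.73 (exact 95% interval 0.84 to 2.79, adjusted exact p = 0.00326). The gene itself had 124 reads in replicate 1 and 61 in replicate 2. Ccdc80_as1, with 46 and 20 reads, had a log2 ratio of 1.29 (0.53 to 2.15, adjusted exact p = 0.0182), while Ccdc80 had 105 and 106 reads. Its call was lost when all models with at least 1 read were tested (adjusted exact p = 0.178). Ccdc80_as2 had a log2 ratio of 0.93 (0.17 to 1.75, adjusted exact p = 0.219) and did not pass. The other chains included Tnnt2_as1, with a log2 ratio of -0.86 (-2.02 to 0.17, adjusted exact p = 0.645), whose interval holds 0. Between the same libraries the summed level of 6 lung markers was 174 CPM in replicate 1 and 10.8 CPM in replicate 2, with 1 of the 6 at 3 or more reads in both, and its part in these differences was not tested. The count of 2 among 22 rests on few chains, and the libraries cannot be told apart from the animals or preparations behind them.

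When all overlapping antisense models were joined into loci and compared beside annotated genes, 173 of 10361 (1.67%) differed, and 4 of 105 testable loci with a spliced antisense model did, all 4 higher in replicate 1. Bcl2l1's antisense locus had 66 and 22 reads (log2 ratio 1.67, adjusted exact p = 6.8e-05), and that of Ccdc80 had 101 and 52 (1.06, adjusted exact p = 0.00139). The locus opposite Neat1, a nuclear long noncoding RNA that builds paraspeckles, had 61 and 19 reads (1.77, adjusted exact p = 8.9e-05), and that holding Gm43669_as1 had 10 and 0 (adjusted exact p = 0.0407). The lung markers given above were higher in replicate 1 too, as were other lists such as the erythroid and macrophage genes. Others, such as the sarcomere and adipocyte genes, were lower there. The part of these lists in the locus differences was not tested.

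Annotated antisense genes are counted in the annotated class and are not among the 1082 models. Of 2959 genes of annotated type antisense, 344 had a read and 48 had at least 3 reads in both libraries, with 759 and 881 reads in all. Mhrt, the myosin heavy chain-associated transcript of the adult mouse heart, had 39 and 41 reads, Atcayos had 52 and 47 and Gm15543 had 41 and 30. The imprinted antisense RNAs Kcnq1ot1 and Airn had 5 and 6 and 3 and 7 reads. The spliced antisense models, with 959 and 887 reads, thus held more reads than all annotated antisense genes together in both libraries, by a small margin in replicate 2. Models with no mirrored intron alone, with 532 and 488 reads, held fewer than the annotated antisense genes.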

How the data were processed

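Heart RNA was measured by long-read RNA-seq in 2 libraries. Each deposited table gives a whole-number count of reads for every model that had 1 or more. Per the file headers, TALON built and classed the models. Quantification by the authors used mm10 alignments that had been filtered and GENCODE M21, separately for each library, per the deposited text; no aligner or version is given in the sources used here. CPM was computed here from the deposited counts.

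The libraries were joined on intron chains, with reads of the same chain in any class used in tests. Coordinates are 1-based on mm10. No genome sequence was used; bases came from GENCODE M21 transcript sequences placed by exon and RefSeq promoters of GRCm38, which agreed at all 3304079 shared bases. Tests were exact (scipy 1.17.1, pandas 2.3.3, numpy 2.4.6), adjusted over all models with at least 10 reads, and tested on simulated data. Intervals and floors cover counting error only. Named models were the 12 with most reads among those with at least 2 in each library, all that differed, the 5 with most exons among those with at least 2 in each library, the 5 genes with most chains (with ties), and those with at least 2 reads in each library opposite listed genes. The members and lists were chosen with earlier results of these data known.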

Additional observations from a re-analysis of the deposited data

How the results depend on the processing

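The libraries form 1 group. No paired analysis was possible because there was no second group. The count of chains in both libraries, 115, was 121 with splice sites within 10 bases and 164 in any class (chosen after seeing the data), and fell to 34 with at least 2 and 11 with at least 5 reads of the class in each. The 2 chains that differed were 2 under TMM factors, median-of-ratios size factors, totals of all reads other than spike-ins and a minimum of 20 reads, 1 (Bcl2l1_as1) of 1082 with a minimum of 1 read, and 4 as loci; the size factors shifted all ratios by 0.11 (log2). The spliced share of antisense reads, 3.08%, was 1.80% for models with at least 2 reads and 3.03 to 3.13% with a library left out. The next shares count models whose introns all matched exactly or within 10 bases, though the readable ends of the latter resembled those of unmirrored introns. The share of models, 33.6%, was 29.3% by exact match, 33.8% within 20 bases and 34.2% with at least 1 intron. It was 34.4% with unannotated models as the mirror, 41.4% with at least 2 reads in all and 44.3% for models in both libraries. It was 69.7% at 5 reads in each (chosen after seeing the data) and 32.3 to 34.8% with a library left out. The share of reads, 44.4%, was in the same order 40.9%, 44.6%, 44.8%, 44.9%, 56.8%, 62.6%, 83.0% and 44.2 to 44.5%. The median antisense share of the gene's reads, 6.86%, was 6.46% with genomic models counted, 11.1% with annotated models only and 6.67 to 7.06% with a library left out. Of introns with both ends known, GT-AG was 58.8% and CT-AC 28.9% of distinct introns, and 47.4% and 43.2% weighted by reads. Of 42 log2 ratios of named models under other scalings, 40 kept their direction and call; with size factors Ankrd1_as1 came to -0.080 and Ubl3_as1 to 0, both uncalled. The cause of these shifts was not tested. Most chains had 1 read, so their absence from a library was not detectable as a difference at this depth.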

Other observations

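The listed antisense and imprinted noncoding RNAs that had few reads were Tug1, with 3 and 4 reads in replicates 1 and 2, Peg13 with 7 and 3, Meg3 with 3 and 1, Dnm3os with 0 and 1, Hoxaas3 with 0 and 1 and Zeb2os with 1 and 0. Emx2os, Foxl2os, Mirg, Pantr1, Rian and Wt1os had 0 reads in both libraries, which allows up to 3 reads in each. The chains with the most exons, AC149090.1_as1 and AC149090.1_as2, had 24 each on an unplaced scaffold opposite AC149090.1, with 1 read in replicate 1 for the first and 1 read in replicate 2 for the other, and no intron of either was mirrored. Chromosomes 2 and 11 held the most distinct models, 94 and 92, and the X held 23.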
